A study of Homo sapiens with 6 samples.

Results

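The enzymes described here are the phase II conjugating enzymes of A549 cells: the UDP-glucuronosyltransferases of the UGT1A, UGT2A and UGT2B groups, the glutathione transferases and the cytosolic sulfotransferases. They were taken from the deposited table by the start of the gene symbol (UGT1A, UGT2A, UGT2B, GSTA, GSTK, GSTM, GSTO, GSTP, GSTT, GSTZ, MGST or SULT), a rule on names that does not use their values, although the group was proposed with earlier results of these data known. This gave 41 of 17335 genes, of which 13 are glucuronosyltransferases, 16 are glutathione transferases and 12 are sulfotransferases. A549 is an established human line from a lung adenocarcinoma, labelled as a hypotriploid alveolar basal epithelial cell. All cells were kept in F12K medium with serum, and each library was made from 1.3 ug of total RNA. The control group received DMSO, the usual solvent, and the other group received a compound abbreviated BRQ. The title of the series names a DHODH inhibitor, DHODH being the enzyme of mitochondria that forms orotate for pyrimidine synthesis, but the labels do not spell BRQ out and give no dose or time. Each group had 3 libraries, and nothing in the labels says that these came from separate cultures, so p-values below reflect library-to-library spread that may be technical.

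Phase II enzymes attach a water-soluble group to drugs, hormones and reactive products of metabolism. Glucuronosyltransferases sit in the endoplasmic reticulum and use UDP-glucuronate, which is built from the pyrimidine nucleotide UTP. Glutathione transferases add the tripeptide glutathione to electrophiles, and some members act instead as peroxidases, reductases or isomerases. Sulfotransferases use the sulfate donor PAPS. A549 cells are known to carry an inactivating mutation of KEAP1, the repressor of the transcription factor NRF2 (gene NFE2L2), so genes with antioxidant response elements are already active in untreated cells of this line.

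The sequences shown first are those that limit or frame the readings below. The 5 listed UGT1A genes are splice products of a single locus on chromosome 2, each with its own first exon joined to the same downstream exons. The junctions below were read from GENCODE 29 transcripts (GRCh38, plus strand); lower case marks the last 30 bases of each gene's own exon 1 and capitals mark the first 30 bases of exon 2, which all 5 share.
UGT1A1: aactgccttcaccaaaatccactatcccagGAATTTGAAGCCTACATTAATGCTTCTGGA
UGT1A6: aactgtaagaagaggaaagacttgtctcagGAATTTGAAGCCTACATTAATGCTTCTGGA
UGT1A7: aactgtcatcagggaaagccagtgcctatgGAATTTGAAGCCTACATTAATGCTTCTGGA
UGT1A8: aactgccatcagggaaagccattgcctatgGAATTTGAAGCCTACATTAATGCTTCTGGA
UGT1A9: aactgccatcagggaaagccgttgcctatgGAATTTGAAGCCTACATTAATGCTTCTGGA
The shared exon 2 spans 233767034 to 233767165, while the own exons end at 233761151 for UGT1A1, 233693865 for UGT1A6, 233682792 for UGT1A7, 233618562 for UGT1A8 and 233672789 for UGT1A9. Between 59.7% and 63.4% of each transcript lies after exon 1, so most of the length of a UGT1A transcript does not tell the members apart. The gene lengths behind the FPKM values were 2361 to 2574 bases, close to whole transcripts, so the shared part was included in the length. The sources used here do not say whether reads in the shared exons were counted, or how they were assigned.

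SULT1A3 and SULT1A4 are near-identical copies on chromosome 16. Their coding sequences of 903 bases were 100% identical, and the RefSeq windows of 250 bases before their starts had 0 differences (GRCh38.p14). The first 220 bases of that window, which no GENCODE exon reaches, are shown because no read from it or from the coding part could separate the copies; they lie at chr16:30199005-30199224 for SULT1A3 and chr16:29459663-29459882 for SULT1A4, on the plus strand.
SULT1A3 and SULT1A4: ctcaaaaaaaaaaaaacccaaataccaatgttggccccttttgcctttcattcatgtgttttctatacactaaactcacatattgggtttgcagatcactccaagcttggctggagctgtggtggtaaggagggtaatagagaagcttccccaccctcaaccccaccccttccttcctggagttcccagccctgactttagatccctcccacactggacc

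Of the 41 members, 33 had an upstream window in the RefSeq table. These members had 37 windows, and a member counted as holding a motif if any of its windows did. The antioxidant response element core, spelled TGACNNNGC, was searched on both strands in the 250 bases before each start. It was present for 8 of the 33 members and in 10.9% of all 35116 windows, a share counted per window. Among the 10 glutathione transferases that were tested and had a window, 3 held it, and their cores are shown in capitals with 10 bases on either side.
GSTP1: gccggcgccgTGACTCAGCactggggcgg
GSTO1: ggcggagggaTGACTGAGCatttataact
GSTO1: cgagatgcttTGACACAGCcccttaagat
GSTA4: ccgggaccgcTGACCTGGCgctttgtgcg
The GSTP1 core began 66 bases before the start (chr11:67583736-67583764, plus strand). The GSTO1 cores began 226 and 161 bases before the RefSeq start used for it, which lies inside the listed gene span (chr10:104254656-104254684 and chr10:104254721-104254749, plus strand), and the GSTA4 core began 9 bases before its start (chr6:52995275-52995303, minus strand). The GSTP1 core contains an AP-1 site, TGANTCA, which was found in the window of no other member and in 6.57% of all windows. The xenobiotic response element core GCGTG was present for 10 of the 33 members and in 32.2% of all windows. These matches describe the letters in the windows and not binding.

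The deposited values are FPKM, fragments per kilobase of gene scaled to the library's read total. Those totals, recovered from the step size of low FPKM values, were 27789225 to 29644462 reads in DMSO and 32195353 to 34908895 in BRQ. Epithelial markers were present, with EPCAM, CDH1, KRT8, KRT18, KRT19 and KRT7 (6 of 6) summing to 1228 to 1243 FPKM in DMSO and 1368 to 1471 in BRQ. The sum joins opposite changes, since KRT7 was called lower (mean 577 FPKM in DMSO and 355 in BRQ). EPCAM (0.737 and 3.73), CDH1 (1.83 and 5.77), KRT8 (199 and 350), KRT18 (453 and 662) and KRT19 (3.62 and 30.2) were called higher. The 8 alveolar type II markers summed to 7.87 to 8.37 FPKM in DMSO and 10.84 to 10.96 in BRQ. Most of this was ABCA3 (6.73 and 7.06 FPKM), while NAPSA (0.885 and 2.01) and LAMP3 (0.331 and 1.71) were called higher and the surfactant gene SFTPB was listed at 0 in DMSO and averaged 0.0102 FPKM in BRQ. The 4 listed leukocyte markers summed to 45.7 to 53.5 FPKM in DMSO and 144 to 152 in BRQ, nearly all of it CD68 (48.7 and 146, called higher). CD14 was called higher at low level (0.222 and 1.02), and PTPRC, the defining leukocyte marker, was near 0 (0.00556 and 0.00327). The fibroblast markers summed to 1.54 to 1.995 and 4.98 to 5.13 FPKM, mostly COL1A1, and the endothelial markers to at most 0.188 FPKM. The hepatocyte markers summed to 0.577 to 0.720 FPKM in DMSO and 1.47 to 2.08 in BRQ, mostly from SERPINA1. The part of these marker changes in the results below was not tested. The groups lay apart on the first principal component, which held 94.1% of the variance. Low values differed as well: the 25th percentile of all genes was 0.108 to 0.114 FPKM in DMSO and 0.264 to 0.276 in BRQ, so very low genes in general read higher in BRQ. The part of that shift in the low members below was not tested.

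A gene was tested if 3 or more of the 6 libraries reached 0.5 FPKM. The test was limma on log2(FPKM + 0.5), and a gene was called higher or lower when its Benjamini-Hochberg adjusted p over all 12258 tested genes was under 0.05. Of the 41 enzymes, 17 passed this filter and 24 did not. Of the 17, 14 were called higher in BRQ, 0 were called lower, and UGT1A7, SULT1A3 and SULT2B1 were not called. At an unadjusted limma p under 0.05, and in limma-voom on the recovered reads, 0 members were lower as well. Across all tested genes 79.7% were called in either direction, 44.3% higher and 35.4% lower. The members' median log2 fold change was 0.70, beside 0.07 over all tested genes. At least a 2-fold ratio of means together with a higher call was met by 7 of the 17, and by 13.9% of all tested genes. For 13 of the 17 every BRQ library lay above every DMSO library, which held for 44.9% of tested genes, while 81.4% had no overlap in either direction. A gene that enters only through high BRQ values had to differ, so the 13 members that passed in all 3 DMSO libraries are given separately: 11 were called higher, beside 41.0% of the 11395 genes of that kind. RNA was measured in bulk, so a change in RNA per cell and a change in the share of cells with that RNA cannot be told apart.

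**Figure D1:**
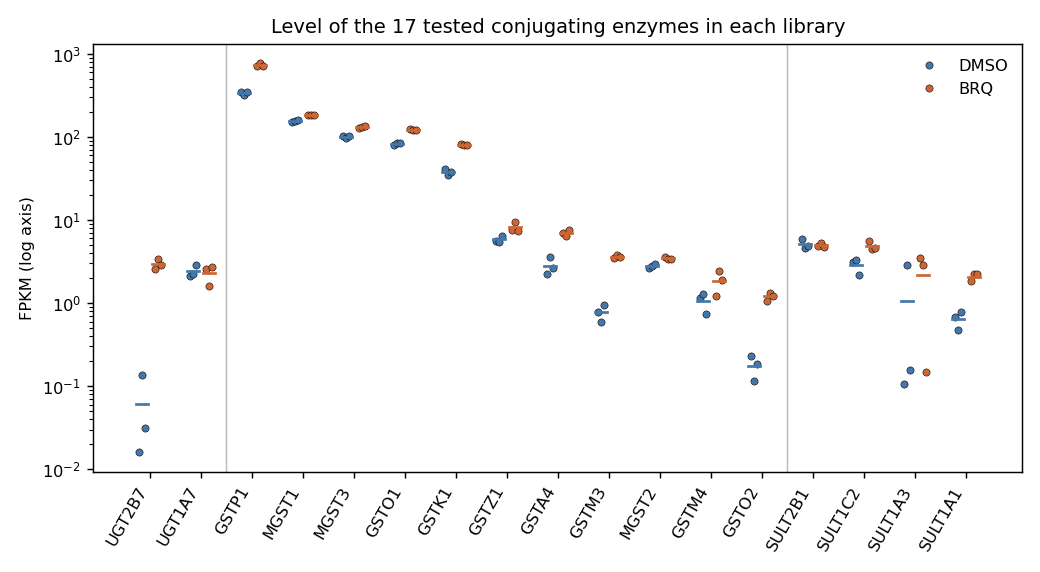
FPKM (log axis) of the 17 tested enzymes in each DMSO and BRQ library, with points for libraries, horizontal bars for group means, and vertical lines between glucuronosyltransferases, glutathione transferases and sulfotransferases. GSTP1 is the highest in both groups, UGT2B7 shows the widest gap between groups, and SULT1A3 splits within both groups.

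Glutathione transferases were the most abundant of the 3 families on the FPKM scale and moved together. All 11 tested members were called higher, 5 of them with a ratio of at least 2, and their median log2 fold change was 0.57; GSTO2, which passed the filter only through BRQ, is among the 11 and the 5. The 10 members that passed the filter in all DMSO libraries were all called higher. The summed level of the 16 listed genes was 733 ± 19.3 FPKM in DMSO and 1284 ± 28.1 in BRQ (SD, n = 3), a ratio of 1.75.

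GSTP1, the pi-class enzyme that conjugates many electrophilic drugs, read 347, 324 and 351 FPKM with DMSO and 727, 771 and 711 FPKM with BRQ. All BRQ libraries lay far above all DMSO libraries, and the mean rose from 341 ± 14.7 to 737 ± 31.2, a ratio of 2.16 (log2 fold change 1.11 ± 0.04 SE, adjusted p = 3.07e-09). Its share of the summed glutathione transferase level was 45.5% to 47.0% in DMSO and 56.3% to 58.6% in BRQ. MGST1, a membrane-bound enzyme with transferase and peroxidase activity, was the next most abundant. It read 153, 157 and 159 FPKM in DMSO and 187, 184 and 187 in BRQ. Its groups did not overlap, but the change was small (ratio 1.19, log2 fold change 0.25, adjusted p = 1.09e-05), and its share fell from 20.7% to 22.1% in DMSO to 14.0% to 14.8% in BRQ.

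GSTK1, the kappa-class enzyme of mitochondria and peroxisomes, read 41.6, 35.2 and 38.1 FPKM in DMSO and 82.5, 80.0 and 80.2 in BRQ. The ratio was 2.11 (log2 fold change 1.07 ± 0.05 SE, adjusted p = 2.85e-08), near that of GSTP1. GSTO1, an omega-class enzyme that reduces dehydroascorbate and protein-glutathione adducts, read 81.3, 83.8 and 84.7 FPKM in DMSO and 124, 120.2 and 122 in BRQ. That is a ratio of 1.47 with very little spread in either group (log2 fold change 0.55 ± 0.03 SE, adjusted p = 5.20e-08). GSTO2 lies next to GSTO1 on chromosome 10 and was far lower, with 0.230, 0.116 and 0.183 FPKM in DMSO and 1.06, 1.32 and 1.22 in BRQ. The ratio of its means was 6.81. It passed the filter only through the BRQ libraries, so among filtered genes it had to differ, and it drops out when any BRQ library is left out. Without the filter its log2 fold change of 1.33 had an adjusted p of 2.55e-05. That fold change depends on the pseudocount and ranged from 0.87 to 2.81 over the alternatives.

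GSTM3, a mu-class enzyme, showed the largest log2 fold change among the tested glutathione transferases at a pseudocount of 0.5, although GSTO2 had the larger ratio of means and exceeded it at a pseudocount of 0.1 and in limma-voom. GSTM3 read 0.777, 0.589 and 0.952 FPKM in DMSO and 3.46, 3.83 and 3.60 in BRQ, a ratio of 4.70 (log2 fold change 1.71 ± 0.11 SE, adjusted p = 2.14e-07). GSTM4, another gene of the mu cluster on chromosome 1, read 1.15, 1.30 and 0.742 FPKM in DMSO and 1.22, 2.43 and 1.89 in BRQ. The first BRQ library lay within the DMSO range, and the call was marginal (log2 fold change 0.57 ± 0.19 SE, adjusted p = 0.0196). It was lost without DMSO library 3 (adjusted p = 0.0759), without BRQ library 2 (0.0875) and without BRQ library 3 (0.0553), with quantile normalization (0.147) and without the filter (0.0647). GSTM2, which shares 375 exon bases with GSTM4, stayed below the filter with 0.254, 0.442 and 0.0177 FPKM in DMSO and 0.107, 0.376 and 0.116 in BRQ, with overlapping groups. GSTM1 held 4 reads in DMSO and 3 in BRQ.

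GSTA4, the alpha-class enzyme that conjugates hydroxynonenal and other products of lipid peroxidation, read 2.26, 3.59 and 2.63 FPKM in DMSO and 7.03, 6.46 and 7.55 in BRQ (ratio 2.48, log2 fold change 1.19 ± 0.13 SE, adjusted p = 9.66e-06). The lowest BRQ library stood well above the highest DMSO library. GSTZ1 is the maleylacetoacetate isomerase of tyrosine breakdown, and so is not mainly a conjugating enzyme. It read 5.62, 5.49 and 6.49 FPKM in DMSO and 7.62, 9.35 and 7.48 in BRQ (ratio 1.39, log2 fold change 0.44, adjusted p = 0.00131). The remaining microsomal members changed little but without overlap. MGST3 read 102, 97.1 and 102 FPKM in DMSO and 129, 132 and 136 in BRQ (log2 fold change 0.40, adjusted p = 1.46e-06). MGST2, which can make leukotriene C from leukotriene A, read 2.63, 2.76 and 2.96 FPKM in DMSO and 3.61, 3.42 and 3.36 in BRQ (log2 fold change 0.27, adjusted p = 0.00615). The MGST2 call was lost with TMM factors (adjusted p = 0.0569) and with quantile normalization (0.0627), and 7.92% of its annotated exon bases overlap MAML3 on the other strand, whose reads cannot be told apart without a strand setting.

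**Figure D2:**
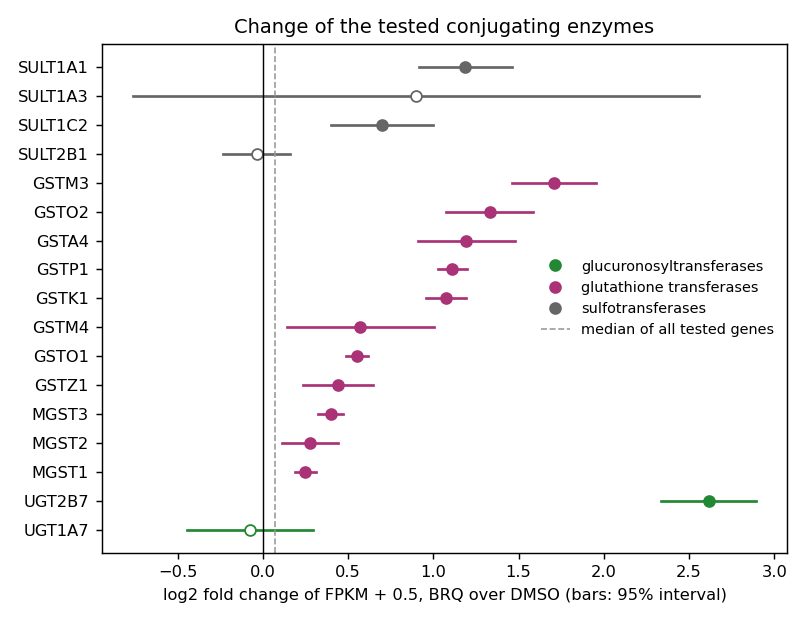
Log2 fold change of FPKM + 0.5, BRQ over DMSO, for the 17 tested enzymes with 95% intervals; filled points were called, open points were not, and the dashed line is the median of all tested genes (0.07). All 11 glutathione transferases lie to the right of 0, and SULT1A3 has the widest interval.

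Among glucuronosyltransferases the change lay in UGT2B7, the enzyme known for glucuronides of morphine, zidovudine and steroids. It read 0.0160, 0.135 and 0.0312 FPKM in DMSO, which are 1, 9 and 2 reads, and 2.57, 3.40 and 2.84 FPKM in BRQ, which are 190, 246 and 223 reads. The lowest BRQ library was far above the highest DMSO library, and the mean went from 0.0607 ± 0.0648 to 2.94 ± 0.423 FPKM, a ratio of 48.3. The ratio of pooled reads per library total was 47.2 with an exact 95% interval of 26.8 to 91.8, which covers counting error only. The log2 fold change was 2.61 ± 0.13 SE and ranged from 1.89 to 5.82 over the alternatives. UGT2B7 passed the filter through its 3 BRQ libraries alone, so among filtered genes it had to differ, and it drops out when any of them is left out. Without the filter its adjusted p was 5.20e-06. The RefSeq window used for it held none of the 3 motifs. This window precedes a start that lies inside the listed gene span (69051375 to 69112987 on chromosome 4), and its first 220 bases, at chr4:69096224-69096443 on the plus strand and outside GENCODE exons, are shown because this gene had the largest log2 fold change of the 17.
UGT2B7: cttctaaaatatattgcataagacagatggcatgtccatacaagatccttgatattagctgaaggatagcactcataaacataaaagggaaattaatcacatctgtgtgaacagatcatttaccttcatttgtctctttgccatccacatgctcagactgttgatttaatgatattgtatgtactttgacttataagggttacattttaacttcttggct

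UGT1A7, an enzyme found mainly outside the liver, read highest among the listed glucuronosyltransferases in the control cells. It read 2.14, 2.23 and 2.91 FPKM in DMSO and 2.59, 1.59 and 2.75 in BRQ. The groups overlapped fully, and the log2 fold change was -0.08 with a 95% interval of -0.45 to 0.29 (adjusted p = 0.677). Because reads of the shared exons may be divided among the UGT1A genes, the values of the listed ones were also summed. UGT1A3, UGT1A4, UGT1A5 and UGT1A10 share these exons in GENCODE but have no listed value. Reads given to them, or not counted, are not in the sum. This sum was 2.67, 2.58 and 3.59 FPKM in DMSO and 3.46, 2.40 and 3.42 in BRQ. Like UGT1A7, it was not called (log2 fold change 0.06, 95% interval -0.26 to 0.37, adjusted p = 0.722). These intervals contain no change as well as modest changes in either direction.

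The summed level of the 13 listed glucuronosyltransferases was 3.09 ± 0.50 FPKM in DMSO and 6.39 ± 0.237 in BRQ (SD, n = 3), a ratio of 2.07. UGT1A7 made up 76.6% to 79.8% of that sum in DMSO and 25.6% to 41.4% in BRQ. UGT2B7 made up 0.593% to 4.63% in DMSO and 40.7% to 54.8% in BRQ, so it was the larger of the pair in BRQ libraries 2 and 3 and nearly level with UGT1A7 in BRQ library 1.

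**Figure D3:**
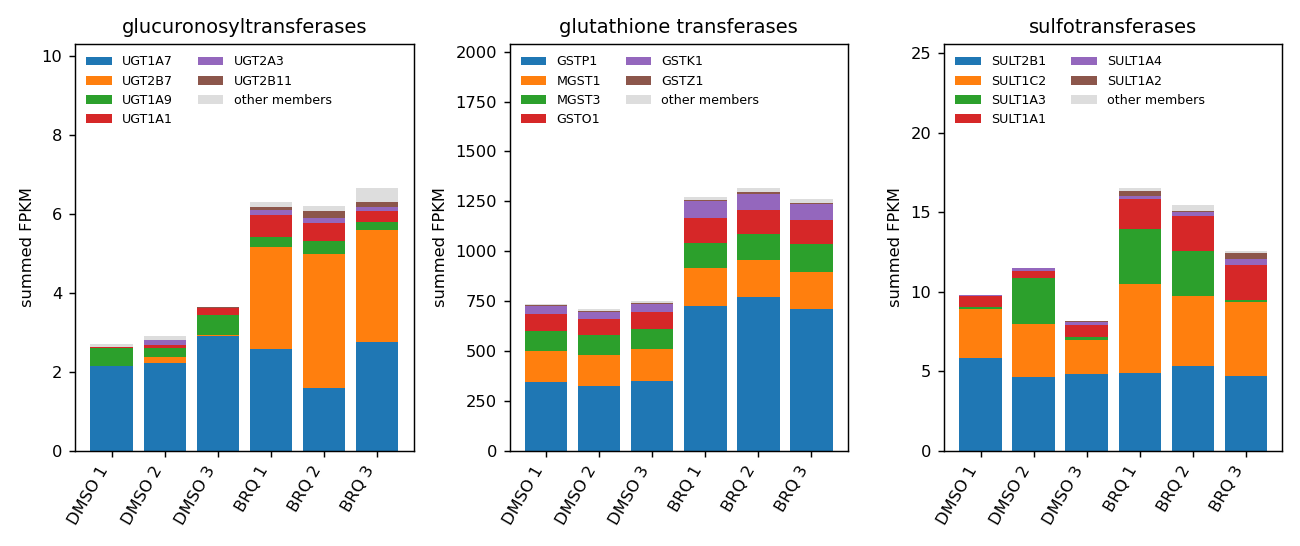
Summed FPKM of each family in each library, stacked by member, with the 6 members of highest overall level named and the others in grey; each panel has its own axis. UGT2B7 adds most of the rise of the glucuronosyltransferases, GSTP1 takes 56.3% to 58.6% of the glutathione transferases in BRQ, and the sulfotransferase sums vary with SULT1A3.

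The other 11 glucuronosyltransferases were below the filter. UGT1A1, the enzyme that conjugates bilirubin, read 0.0152, 0.0714 and 0.178 FPKM in DMSO and 0.553, 0.460 and 0.279 in BRQ. Summed over libraries, 18 reads stood against 101, a ratio of 4.82 per library total with an exact 95% interval of 2.90 to 8.46, and the groups did not overlap. UGT1A9 pointed the other way with 80 reads in DMSO and 63 in BRQ, and its groups overlapped (0.242 to 0.488 FPKM in DMSO, 0.205 to 0.341 in BRQ). UGT1A6 had 0 reads in DMSO and 5, 1 and 16 in BRQ, at least 6.30-fold higher when the DMSO group is set to a floor of 3 reads. UGT1A8 was seen with 4, 2 and 1 reads in DMSO and with none in BRQ. Of these 4 UGT1A genes, limma without the filter called only UGT1A1 (adjusted p = 0.00554), and differences between them were not tested.

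In the UGT2 cluster on chromosome 4, UGT2B11 had 1 read in DMSO and 28 in BRQ (ratio 24.1, exact 95% interval 3.98 to 984). UGT2B10 had 2 and 17 reads (ratio 7.31, interval 1.73 to 65.2), and UGT2A3 had 13 and 36 (ratio 2.38, interval 1.23 to 4.89), with 11 of its 13 DMSO reads in DMSO library 2. The coding sequence of UGT2B7 is 92.7% identical to that of UGT2B10, and UGT2B11 is 97.0% identical to UGT2B28, so some of these few reads may be shared between copies. UGT2B4 went from 4 reads to 1. UGT2B15, UGT2B17 and UGT2B28 had 0 reads in every DMSO library and 3, 2 and 6 reads in BRQ.

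Sulfotransferases split. SULT1A1, the main phenol sulfotransferase of many tissues, read 0.682, 0.468 and 0.778 FPKM in DMSO and 1.84, 2.21 and 2.21 in BRQ. Every BRQ library was above every DMSO library (ratio 3.25, log2 fold change 1.19 ± 0.12 SE, adjusted p = 7.06e-06). SULT1A1 was below 0.5 FPKM in DMSO library 2, so it is not among the members that passed in all DMSO libraries. In limma without the filter its adjusted p was 0.000207. SULT1C2 read 3.10, 3.31 and 2.16 FPKM in DMSO and 5.61, 4.43 and 4.65 in BRQ (ratio 1.72, log2 fold change 0.70 ± 0.13 SE, adjusted p = 0.000736), also with no overlap. SULT2B1, which sulfonates cholesterol and related steroids, was the leading sulfotransferase of the controls. It read 5.84, 4.66 and 4.84 FPKM in DMSO and 4.87, 5.31 and 4.69 in BRQ, with overlapping groups and a log2 fold change of -0.04 (95% interval -0.23 to 0.16, adjusted p = 0.708).

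SULT1A3, the catecholamine sulfotransferase, varied more within groups than between them. It read 0.106, 2.89 and 0.155 FPKM in DMSO and 3.50, 2.84 and 0.148 in BRQ, which are 4, 116 and 6 reads against 156, 124 and 7. DMSO library 2 and BRQ libraries 1 and 2 were high and the other 3 libraries were near 0. The log2 fold change of 0.90 ± 0.74 SE was not called (adjusted p = 0.287), but it was called without BRQ library 3 (log2 fold change 1.73, adjusted p = 0.0281). Its copy SULT1A4, with 2, 6 and 6 reads in DMSO against 11, 11 and 17 with BRQ, did not mirror these jumps. The sum of both copies was not called either (log2 fold change 1.01, adjusted p = 0.172). Read-through transcripts that start in the neighbouring SLX1 genes cover 70.7% of the annotated exon bases of SULT1A3 and 85.2% of those of SULT1A4. SLX1A is the neighbour of SULT1A3, and SLX1B is that of SULT1A4. The listed values of the neighbours differed: SLX1B rose from 0.319 ± 0.103 to 3.66 ± 0.894 FPKM (log2 fold change 2.33, adjusted p = 2.09e-07), while SLX1A read 0.723 ± 0.276 and 0.929 ± 0.382 FPKM (adjusted p = 0.373). Whether reads of SLX1A and SLX1B can be told apart was not checked. The part of these neighbours in the SULT1A3 and SULT1A4 values was not tested.

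The summed level of the 12 listed sulfotransferases was 9.83 ± 1.66 FPKM in DMSO and 14.9 ± 2.03 in BRQ (SD, n = 3). SULT2B1 made up 40.5% to 59.6% of it in DMSO and 29.5% to 37.2% in BRQ, and SULT1C2 made up 26.3% to 31.6% and 28.6% to 36.9%. All 8 sulfotransferases below the filter had a higher mean in BRQ. SULT1B1, which acts on thyroid hormones, had 3 reads in DMSO and 14, 20 and 27 in BRQ (ratio 17.5, exact 95% interval 5.70 to 87.1). SULT1C4 had 1 read in DMSO and 10, 5 and 5 in BRQ (ratio 17.2, interval 2.75 to 712). SULT1A2, whose coding sequence is 96.8% identical to that of SULT1A1, had 5 and 30 reads with overlapping groups.

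Over all 24 members below the filter, 19 had a higher mean in BRQ, beside 76.0% of the 5077 genes below the filter, and 7 had every BRQ library above every DMSO library, beside 31.5%. Both shares lie near those of other low genes. At 0 reads in all DMSO libraries were 11 of the 24, at the depth given above, so absence of these transcripts is not shown. Without the filter, limma called UGT1A1, UGT2B11, SULT1A4, SULT1B1 and SULT1C4 higher in addition, with adjusted p from 0.00218 to 0.0120. In that setting 11010 of all 17335 genes were called in either direction, and 59.7% of those calls were higher. The share called higher among all genes below the filter was not computed. Whether these members differ from other low genes in this was therefore not tested.

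**Figure D4:**
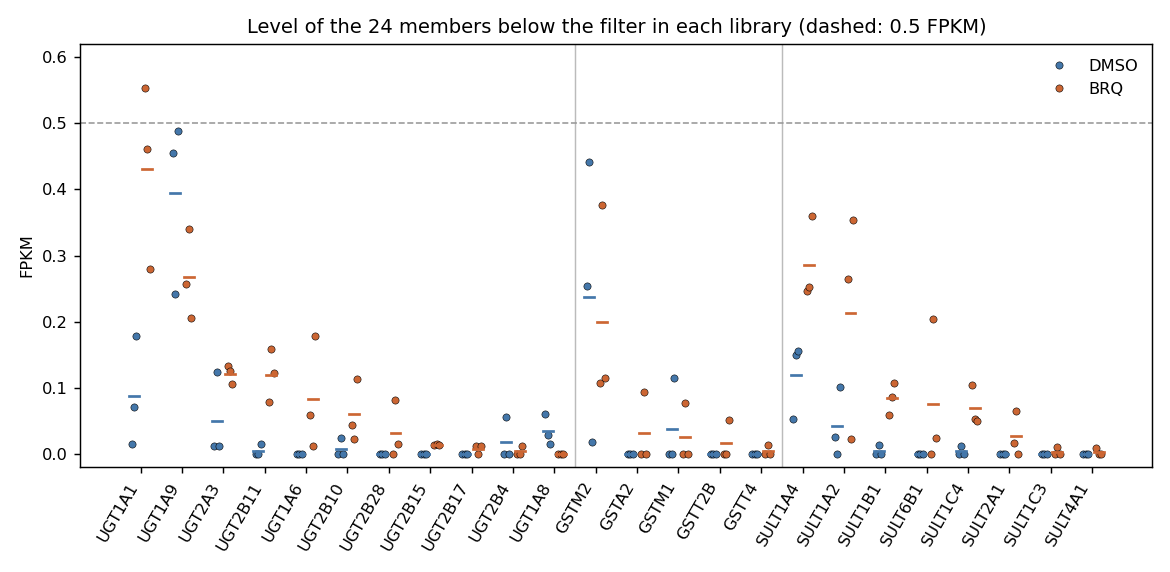
FPKM of the 24 enzymes below the filter in each library (linear axis), with points for libraries, horizontal bars for group means and a dashed line at 0.5 FPKM. UGT1A1, UGT2B11, SULT1B1 and SULT1C4 have all BRQ points above all DMSO points, and UGT1A9 and GSTM2 overlap.

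Genes that make, carry or use up the cosubstrates were looked at next, from lists chosen by function. Of the 5 UDP-glucuronate genes 4 were called higher and 0 lower, beside 44.3% and 35.4% of all tested genes. The median log2 fold change of the 5 was 0.46. UGP2, which makes UDP-glucose from UTP, rose from 27.7 ± 1.21 to 57.1 ± 2.88 FPKM (log2 fold change 1.03, adjusted p = 1.53e-08). UGDH, which oxidises UDP-glucose to UDP-glucuronate, rose from 70.4 ± 1.59 to 96.8 ± 2.71 FPKM (0.46, adjusted p = 4.64e-07). The transporters SLC35D1 and SLC35D2, which carry nucleotide sugars into the endoplasmic reticulum and Golgi, rose by log2 fold changes of 0.84 and 0.39. UXS1, which uses UDP-glucuronate up to make UDP-xylose, had a log2 fold change of -0.08 and was not called (adjusted p = 0.225), but was called lower with TMM factors (-0.19).

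For glutathione, 7 of 9 tested genes were called higher and 2 lower, beside 44.3% and 35.4% of all tested genes. The median log2 fold change of the 9 was 0.52. GSR, which reduces oxidised glutathione, rose from 45.4 ± 1.25 to 124 ± 2.67 FPKM (log2 fold change 1.44, adjusted p = 1.97e-10). GCLC and GCLM, the subunits of the rate-limiting ligase, rose by log2 fold changes of 1.07 and 0.99, and SLC7A11, the cystine transporter, by 0.55. Its partner chain SLC3A2 was lower (-0.34). For the sulfate donor PAPS, 7 of 9 tested genes were called higher and 2 lower, with a median of 0.46. The sulfate transporter SLC26A2 rose from 16.8 ± 0.733 to 45.9 ± 2.20 FPKM (1.42, adjusted p = 2.12e-09). BPNT1 and BPNT2, phosphatases that clear the spent donor PAP, rose by 1.09 and 0.82, and SLC26A11 was lower (-0.77).

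Of 6 export transporters, 2 were called higher and 4 lower, with a median log2 fold change of -0.33; among all tested genes 44.3% were called higher and 35.4% lower. ABCC2, an efflux pump for glucuronide and glutathione conjugates, read 48.3 ± 0.628 FPKM in DMSO and 29.1 ± 0.746 in BRQ (-0.72, adjusted p = 2.38e-08), and ABCC1 was lower as well (-0.41). ABCC5 rose from 1.68 ± 0.118 to 7.12 ± 0.605 FPKM (1.80, adjusted p = 1.57e-08) and ABCG2, which exports sulfate conjugates, rose by 0.66. Of 9 tested genes that break conjugates down, 6 were called higher and 2 lower (median 0.34). GGT1, which starts the trimming of glutathione conjugates, rose from 13.4 ± 0.476 to 27.2 ± 1.08 FPKM (adjusted p = 1.78e-08). The peptidase ANPEP rose by 0.86, the sulfatase ARSA by 0.54 and the glucuronidase GUSB by 0.47. GGT7 and the sulfatase ARSB were called lower (-0.42 and -0.21). The sulfatase STS was not called (0.04, adjusted p = 0.667).

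Other phase II and detoxifying enzymes had 8 of 13 tested genes called higher and 4 lower (median 0.85). NQO1, a quinone reductase, rose from 225 ± 4.50 to 785 ± 27.8 FPKM (log2 fold change 1.80, adjusted p = 4.00e-11). EPHX1, the microsomal epoxide hydrolase, rose by 1.43, the carbonyl reductase CBR3 by 1.40 and the arylamine acetyltransferase NAT1 by 1.21. Of 17 tested regulators 5 were called higher and 9 lower (median -0.18). NFE2L2 itself was lower, from 72.1 ± 0.970 to 55.9 ± 1.75 FPKM (-0.37, adjusted p = 2.75e-06), and KEAP1 was higher (0.64, adjusted p = 5.05e-06). BACH1, which competes for antioxidant response elements, rose by 0.75, and RXRA and MAFK were lower (-0.92 and -0.80). AHR, the receptor that binds the xenobiotic response element, was lower (-0.23). Over the 7 lists 39 of 68 tested genes were called higher (57.4%) and 23 lower, beside 44.3% and 35.4% of all tested genes, so the share called lower was near that of all genes.

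**Figure D5:**
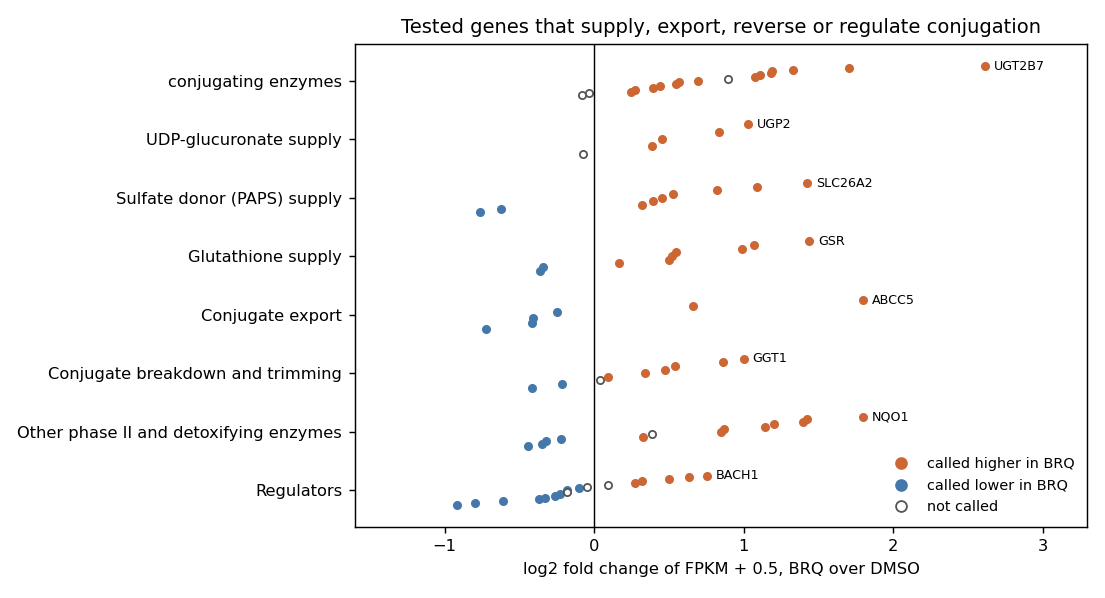
Log2 fold change of FPKM + 0.5, BRQ over DMSO, of the tested conjugating enzymes and of the tested genes of 7 related lists; filled points were called (orange higher, blue lower), open points were not, and the highest gene of each row is named. The conjugating enzymes reach from -0.08 to 2.61 with 0 called lower, while exporters and regulators fall on both sides of 0.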

How the data were processed

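FPKM values for 17335 genes in 6 libraries were deposited by the authors, with hg38, fastp and HTSeq named per the submitters' processing notes. The sources used here do not name the aligner, annotation or strand setting. FPKM of a gene were whole multiples of 1 read (within 0.01 read for all 17335 genes), which gave reads and library totals; ratios of reads have exact Clopper-Pearson 95% intervals, which cover counting error only. Between replicates the chi-square per gene was 3.92 to 6.11, and the limma test kept each library separate. The ratios of reads sum the libraries of each group, so their intervals leave out this spread between libraries.

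The test was limma 3.58.1 (R 4.3.3) on log2(FPKM + 0.5), eBayes with trend, two-sided, Benjamini-Hochberg over the 12258 genes that passed the filter. The pseudocount shrinks fold changes of low genes. Tested on simulated data (11670 genes fitted), the limma test recovered 46%, 94%, 96% and 96% of genes changed 1.25-, 1.5-, 2- and 4-fold, and 12 of its 178 calls were false. The simulation changed only a small part of the genes, in random directions, with the same assumed spread for every gene. In the real data 79.7% of tested genes were called and low genes shifted as a group. The simulated rates therefore need not hold for these data. Intervals on fold changes are 95%.

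The members and lists were chosen with earlier results of these data known. Named are all members above the filter, members below it with at least 20 reads or a sequence shared with a named one, up to 4 called genes per list by size of change, and NFE2L2, KEAP1 and AHR; the others named were picked after their values were seen. Some genes picked by this rule are not reported here. Of 84 genes in the lists, 80 had a value. Windows and coordinates are from RefSeq GRCh38.p14 and exons and coding sequences from GENCODE 29. Python 3.11.15, numpy 2.4.6, pandas 2.3.3, scipy 1.17.1 and matplotlib 3.10.9 were used.

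The alternatives were a pseudocount of 0.1 or 1, every gene tested or only genes averaging at least 1 FPKM, quantile normalization or TMM factors, array weights, eBayes with no trend, a block for replicate number, each library left out in turn, limma-voom on the recovered reads, and UGT1A or SULT1A copies summed.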

Additional observations from a re-analysis of the deposited data

How the results depend on the processing

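Of 264 refits of the 17 tested members, 256 kept their side of the threshold, 7 lost the call (GSTM4 and MGST2, given above) and 1 gained it (SULT1A3). UGT1A7 and SULT2B1, called in none, changed sign in 3 of these refits, all with a library left out, and UGT1A7 also when the UGT1A genes were summed. Without the filter 3 glucuronosyltransferases and 5 sulfotransferases were called higher, beside 1 and 2 with it. Leaving out libraries gave 0 to 1 glucuronosyltransferases called higher, with 0 when any BRQ library was left out, since UGT2B7 then misses the filter by construction. TMM factors and quantile normalization moved the median of all tested genes from 0.07 to -0.04 and -0.02, and the share of calls that were higher from 55.5% to 46.6% and 48.7%. Of 1086 refits of related genes, 39 lost and 5 gained the call, and SUMF2 turned to -0.026 with TMM factors (adjusted p = 0.572) from 0.09. Calls of ARNT, ARSB and SUMF2, among others, were lost under several settings each; the cause was not tested. The replicate numbers did not pair the libraries: deviations of same-numbered libraries correlated at -0.0235, -0.00831 and -0.0378. With the replicate number as a block 9629 genes were called, beside 9768, and no member changed its call. Members with fewer than about 20 reads are limited by depth.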
